A study of Mus musculus with 8 samples.

Results

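The constitutive proteasome genes were followed across 8 bulk RNA libraries of subcutaneous KPC tumours in mice, KPC being a widely used mouse model of pancreatic cancer. Members were the rows of the count table whose symbol consists of Psma, Psmb, Psmc, Psmd or Psme and a number, without Psmb8, Psmb9 and Psmb10, and with at least 10 reads in each of the 8 libraries. Of 57132 rows, 40 matched the symbol and 39 met the read minimum. Just inside it lay Psma8 with 10 reads in PDT 3, and just outside lay Psmb11, the thymic catalytic subunit, with 0 reads in 7 libraries and 14 in PDT 3. The next lowest member, Psmd10, had at least 1264 reads in every library. All 39 members were among the 16588 genes tested. The control group was 4 tumour samples of the PBS treatment, a buffered saline. The other 4 were labelled as targeted photodynamic therapy mediated by Ce6@D4-EV, called PDT here. Photodynamic therapy uses light to make a photosensitiser, here Ce6 (chlorin e6), produce reactive oxygen. Both groups share the same tumour model, and the labels give no strain, age, dose, light setting or time after treatment. The labels call the tumour tissue sorted and name no gate. They do not say that samples came from separate animals, so a p-value here covers only the spread among these samples, which may be technical. In bulk RNA, a change in the share of a cell type and a change in RNA per cell cannot be told apart.

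The proteasome is the protease that breaks down ubiquitin-tagged proteins in the cytosol and nucleus. Its barrel-shaped core is built of outer rings of alpha subunits, which gate the entrance, and inner rings of beta subunits, some of which (Psmb5, Psmb6 and Psmb7) hold the active sites. A regulatory particle docks on the core: its base carries a ring of ATPases (Psmc genes) that unfold substrates, and its lid (Psmd genes) holds the enzyme that removes ubiquitin. Activators of the Psme family dock in its place and open the gate without ATP. Interferon-gamma replaces the active-site subunits with Psmb8, Psmb9 and Psmb10 and raises Psme1 and Psme2, and the transcription factor Nfe2l1 raises the subunit genes together when the proteasome is inhibited. The symbol rule also takes genes outside the constitutive particle: Psma8, a testis form of Psma7, and Psmd5, Psmd9 and Psmd10, chaperones that assemble the base and leave it.

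Promoters are shown for Psmb5 and Psmb6, of the active-site genes, and for Psmd9 and Psmb3, which hold letters of a stress or interferon element. The responses to stress and to interferon are known to act on some proteasome genes. The letters do not show that Psmd9 or Psmb3 is among them. The sequences are the bases just before the RefSeq start on GRCm38.p6, 5′ to 3′ on the gene's strand, while the submitters' notes name GRCm39. Capitals mark matches, on either strand, to TGACNNNGC (the core of the antioxidant response element bound by Nfe2l1 and Nfe2l2), GAAANN followed directly by GAAA (the core of the interferon-stimulated response element) or TTCNNNGAA (the gamma-activated site). The stretch of Psmb6 is short because its match adjoins the start. Psmb8, an interferon-inducible gene and no member, is given for comparison. It is not typical of the inducible genes. Psmb9, Psmb10, Psme1 and Psme2 held none of these letters in the 250 bases before the start.
Psmb5 (chr14:54617996-54618115, minus strand): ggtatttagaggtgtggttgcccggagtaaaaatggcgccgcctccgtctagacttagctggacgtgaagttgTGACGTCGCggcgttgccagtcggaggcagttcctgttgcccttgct
Psmb6 (chr11:70525327-70525356, plus strand): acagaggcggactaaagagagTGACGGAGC
Psmd9 (chr5:123227990-123228189, plus strand): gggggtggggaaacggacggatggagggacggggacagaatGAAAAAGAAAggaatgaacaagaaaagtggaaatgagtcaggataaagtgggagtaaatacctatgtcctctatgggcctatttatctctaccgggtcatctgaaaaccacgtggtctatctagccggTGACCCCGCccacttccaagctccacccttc
Psmb3 (chr11:97703234-97703433, plus strand): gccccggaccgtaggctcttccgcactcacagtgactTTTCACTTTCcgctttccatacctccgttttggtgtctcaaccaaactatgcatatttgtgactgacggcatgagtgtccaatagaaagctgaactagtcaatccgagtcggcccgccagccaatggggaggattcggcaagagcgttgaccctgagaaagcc
Psmb8 (chr17:34198075-34198194, plus strand): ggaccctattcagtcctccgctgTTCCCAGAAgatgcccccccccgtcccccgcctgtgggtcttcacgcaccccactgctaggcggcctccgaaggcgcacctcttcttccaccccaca

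A promoter was found for 32 of the 39 members, and the 250 bases before the start were searched in them and in 27025 promoters of all genes. TGACNNNGC occurred in 5 of the 32 (15.6%), namely Psmb5, Psmb6, Psmc6, Psmd9 and Psmd12, against 10.1% of all promoters. The interferon-stimulated core occurred in Psmb3, Psmd4 and Psmd9, which is 3 of 32 (9.38%) against 3.04%. TTCNNNGAA occurred in 0 of 32 against 7.18%. CCAAT, the box bound by NF-Y, occurred in 12 of 32 (37.5%) against 34.5%. These are letters in a window and not binding sites.

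Summed gene counts of the PBS libraries ran from 35742024 to 40337306 reads and those of the PDT libraries from 39026840 to 48804713, of which the members took 0.620% to 0.663% in PBS and 0.625% to 0.697% in PDT. PBS 1 lay apart on the first principal component of all tested genes, at −111, against −8.53 to 37.2 for the other libraries, so counts are also given without it. Mitochondrial genes took 2.26% to 3.14% of reads in PBS and 1.56% to 2.27% in PDT. Markers of epithelial tumour cells were present in every library, with a summed level of 3475 to 7117 CPM (counts-per-million of the scaled library) in PBS and 3038 to 6109 CPM in PDT.

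No member passed edgeR's test between the groups, and 33 of 39 members lay within 1.3-fold of the PBS level. The share within that range was not computed for other genes, so it is not read as particular to the members. With edgeR's quasi-likelihood test, adjusted over all 16588 genes, 0 of 39 members had an adjusted p under 0.05, where 0.235% of all tested genes did, and the smallest adjusted p among members was 0.105. DESeq2 called 2 (Psma4 and Psmb6) of the 38 members it adjusted, all but Psma8, against 6.36% of the genes it adjusted, and limma-voom called 0 of 39, against 1.01%. With edgeR it was 1 of 39 (Psma4) without PBS 4, against 0.712%, and 0 of 39 after the GC and length correction, against 0.0965%. At an unadjusted p under 0.05 there were 11 of 39 members (28.2%), against 16.5% of all genes and 25.3% of the 6000 other genes with a mean of at least 30 CPM. Without PBS 1, PBS 2, PBS 3, PDT 1 or PDT 4 that number was 7, 6, 6, 7 and 7, against 15.5%, 13.9%, 13.8%, 12.6% and 12.2% of all genes. Without PBS 4, PDT 2 or PDT 3 it was 13, 12 and 14, where 2898, 2848 and 2350 of all tested genes were called. With all libraries 2737 of 16588 were called. The fit without PBS 4 tested 17139 genes, and the share of all genes was not computed for these fits. Of the 11, 9 were higher in PDT and 2 lower, against 8.63% and 7.87% of all genes. The groups did not overlap in 8 members (20.5%), against 10.1% of all genes and 14.7% of the genes of at least 30 CPM. In 6 of them PDT was higher and in 2 lower, against 5.0% and 5.12% of all genes. As fitted, 28 of 39 members were higher in PDT with a median log2 fold change of 0.10, against 49.8% of all genes, but after counts were corrected for transcript length and GC content (the GC and length correction) 12 were higher, against 39.7% of all genes with a known length, and the median was −0.10. In the same fits the median over all tested genes was −0.0022 and −0.08. A corrected value between −0.08 and 0 therefore lay above the median of all genes. The members' median as fitted also depended on PDT 1, without which it was 0.01 with 22 members higher, and on PDT 3, without which it was 0.17.

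**Figure D1:**
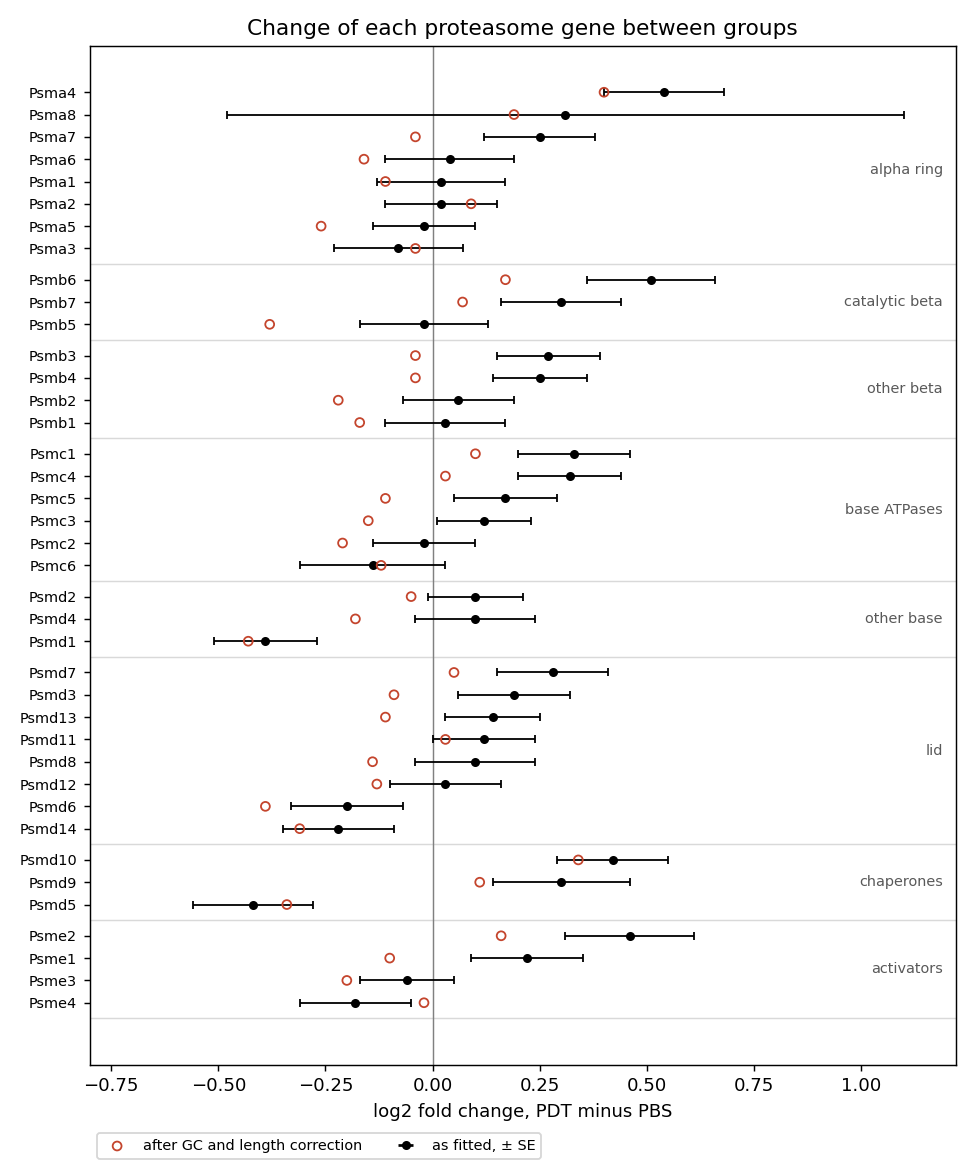
Log2 fold change (PDT minus PBS) of the 39 members, grouped by their place in the proteasome. Black points and bars are the fitted change ± SE and open red circles the value after the GC and length correction. Psma4 lies highest at 0.54 and Psmd5 lowest at −0.42, and 28 members lie above 0 as fitted but 12 after the correction.

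In the alpha ring, Psma4 was the member that differed most and the other genes differed little. Psma4 (ENSMUSG00000032301), a subunit of the gate-forming ring, was at 115, 110.2, 93.7 and 148 CPM in PBS 1 to 4 and at 177, 181, 159 and 161 CPM in PDT 1 to 4. The groups did not overlap, and PBS 4 came nearest to PDT. The fold was 1.45, a log2 fold change of 0.54 ± 0.14 (SE, adjusted p = 0.105 by edgeR). The adjusted p was 0.0183 in DESeq2 and 0.0499 in edgeR without PBS 4, and the log2 fold change was 0.40 after the GC and length correction. The rest of the ring that holds every proteasome core together, Psma1, Psma2, Psma3, Psma5 and Psma6, had log2 fold changes from −0.08 to 0.04 as fitted and from −0.26 (Psma5) to 0.09 (Psma2) after the correction. Psma7 was between them and Psma4, at 0.25 ± 0.13 (adjusted p = 0.392) as fitted and at −0.04 after the correction. Psma3, the lowest of the ring at −0.08 ± 0.15 (adjusted p = 0.846), had overlapping groups. It was at 384, 291, 326 and 314 CPM in PBS and at 349, 371, 251 and 268 CPM in PDT, so that PDT 1 and PDT 2 lay inside the PBS range and PDT 3 and PDT 4 below it. Psma1 and Psma6 were likewise high in PDT 1 and PDT 2 (261 to 319 CPM) and low in PDT 3 and PDT 4 (193 to 233 CPM). Psma8 was close to absent, with 18 to 34 reads per PBS library and 10 to 92 per PDT library, and its log2 fold change of 0.31 ± 0.79 was −0.60 without PDT 1.

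**Figure D2:**
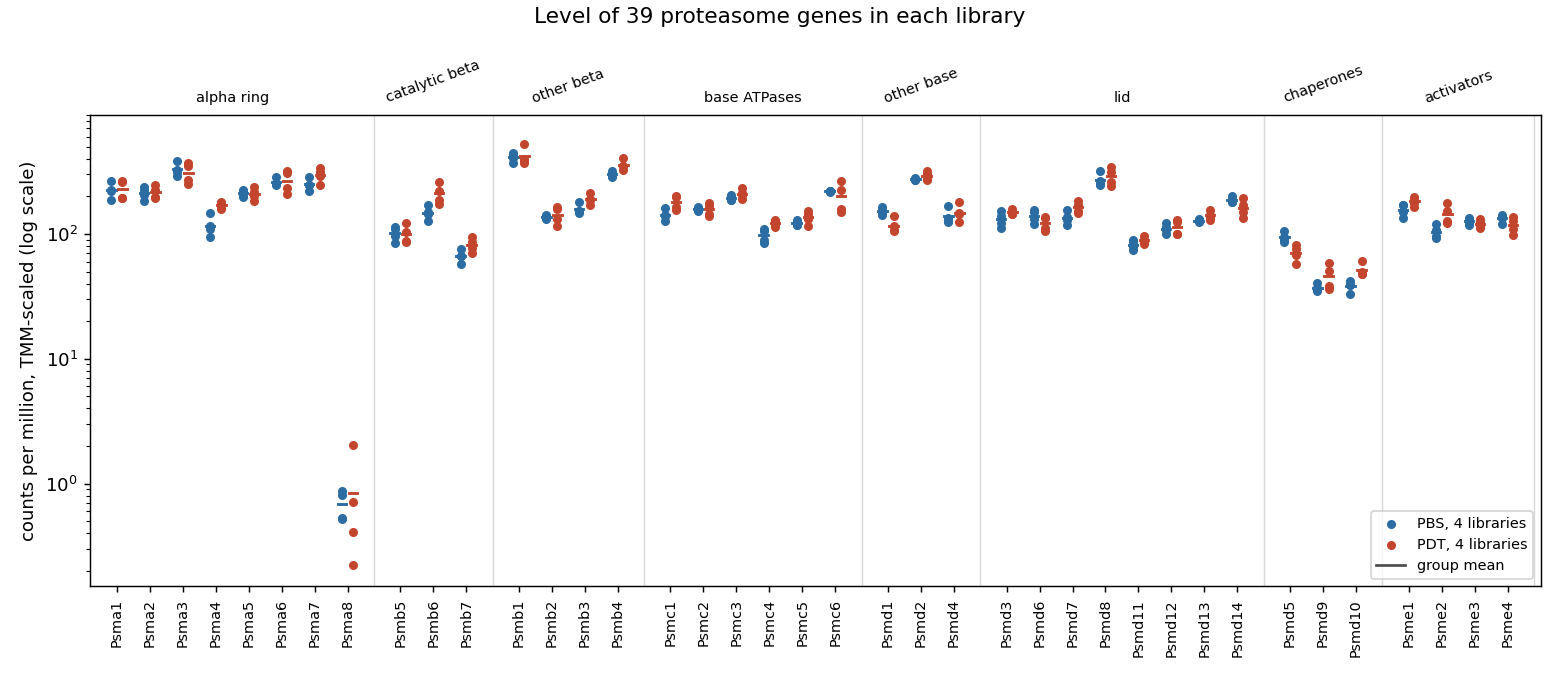
Level of each member in each library, in CPM on a log scale, PBS in blue and PDT in red, with a line at each group's mean. Apart from Psma8, at 0.223 to 2.04 CPM, every member lies between 33.2 and 528 CPM, and in Psma4, Psmb4, Psmb6, Psmc4, Psmd1, Psmd5, Psmd10 and Psme2 the groups do not overlap.

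Of the active-site genes, Psmb6 and Psmb7 were higher in PDT on average and Psmb5 was level, and none passed edgeR's test. Psmb6 (ENSMUSG00000018286), which carries the caspase-like site, was at 145, 149, 127 and 171 CPM in PBS and at 222, 187, 174 and 263 CPM in PDT. The groups did not overlap, with PDT 3 only just above PBS 4, and PDT 4 was highest. Its log2 fold change was 0.51 ± 0.15 (adjusted p = 0.134 by edgeR). The adjusted p was 0.0351 in DESeq2, and the log2 fold change was 0.17 after the GC and length correction. Psmb7 (ENSMUSG00000026750), which carries the trypsin-like site, was at 66.6, 67.1, 57.1 and 75.7 CPM in PBS and at 86.3, 77.6, 70.9 and 94.0 CPM in PDT. PDT 3 lay below PBS 4, and the log2 fold change was 0.30 ± 0.14 (adjusted p = 0.29), or 0.07 after the correction. Psmb5 (ENSMUSG00000022193), which carries the chymotrypsin-like site, was at 114, 109, 95.6 and 84.1 CPM in PBS and at 103, 87.1, 86.9 and 121 CPM in PDT. Its libraries were mixed, with a log2 fold change of −0.02 ± 0.15 (adjusted p = 0.973) as fitted and −0.38 ± 0.15 (adjusted p = 0.255) after the correction. Psmb5 and Psmb6 both hold TGACNNNGC in the promoter stretches shown above.

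The beta subunits without an active site were level or slightly higher as fitted. After the correction all 4 lay below 0, in a fit where the median over all tested genes was −0.08. Psmb3 (ENSMUSG00000069744) was at 152, 146, 153 and 179.5 CPM in PBS and at 212, 188, 169.6 and 191 CPM in PDT. PDT 3 lay inside the PBS range, and the log2 fold change was 0.27 ± 0.12 (adjusted p = 0.285), or −0.04 after the GC and length correction. Psmb4, the most abundant member per length, was at 286 to 322 CPM in PBS and 325 to 403 CPM in PDT with no overlap, a log2 fold change of 0.25 ± 0.11 (adjusted p = 0.286) that was also −0.04 after the correction. Psmb1 and Psmb2 had log2 fold changes of 0.03 and 0.06, or −0.17 and −0.22 after the correction. In PDT 1 Psmb1 was at 528 CPM, above the 367 to 445 CPM of every other library.

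Of the 6 ATPases that unfold substrates, Psmc1 and Psmc4 differed most. Psmc4 (ENSMUSG00000030603) was at 105, 85.3, 89.2 and 110.1 CPM in PBS and at 126, 129, 114 and 119 CPM in PDT. The groups did not overlap, and PBS 4 came nearest to PDT 3. The log2 fold change was 0.32 ± 0.12 (adjusted p = 0.215), or 0.03 after the GC and length correction. Psmc1 (ENSMUSG00000021178) was at 126 to 162.5 CPM in PBS and 156 to 200.2 CPM in PDT, with PDT 3 below PBS 4, a log2 fold change of 0.33 ± 0.13 (adjusted p = 0.238) and one of 0.10 after the correction. Psmc2, Psmc3 and Psmc5 had log2 fold changes of −0.02, 0.12 and 0.17 as fitted and of −0.21, −0.15 and −0.11 after the correction. Psmc6 (ENSMUSG00000021832) had the tightest PBS values of the ring and the widest PDT values. It was at 219.6, 216, 222 and 223 CPM in PBS and at 266, 225, 158 and 149 CPM in PDT, so that PDT 1 and PDT 2 lay above every PBS library and PDT 3 and PDT 4 below. Its log2 fold change of −0.14 ± 0.17 (adjusted p = 0.76) averages these.

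The other base subunits went in different directions. Psmd1 (ENSMUSG00000026229), a large scaffold of the base that binds ubiquitin receptors, was at 164, 149, 156 and 142 CPM in PBS and at 108, 138, 115 and 106 CPM in PDT. Every PDT library was lower than every PBS library, PDT 2 by the smallest margin. The log2 fold change was −0.39 ± 0.12 (adjusted p = 0.151 by edgeR), and it kept its size after the GC and length correction, at −0.43 ± 0.11 (adjusted p = 0.119). Psmd2 (ENSMUSG00000006998), its partner scaffold, was the steadiest member, with an SD of log2 CPM over the 8 libraries of 0.09. It was at 269 to 279 CPM in PBS and at 270.5, 304, 278 and 319 CPM in PDT, a log2 fold change of 0.10 ± 0.11 (adjusted p = 0.719), or −0.05 after the correction. Psmd4 (ENSMUSG00000005625), a ubiquitin receptor, was at 125 to 167.5 CPM in PBS and 126 to 179 CPM in PDT, with a log2 fold change of 0.10 ± 0.14 (adjusted p = 0.801), or −0.18 after the correction.

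Of the 8 lid genes that the symbol rule takes, 0 had an unadjusted p under 0.05 in edgeR and 0 had groups that did not overlap, against 25.3% and 14.7% of other genes of at least 30 CPM. Psmd7 fell just short, with an unadjusted p of 0.0503 by edgeR. With only 8 genes, these counts are not read as a trait of the lid. Their log2 fold changes ran from −0.22 to 0.28. Psmd7 (ENSMUSG00000039067), which pairs with the deubiquitinase, was highest, at 117, 129, 136 and 156 CPM in PBS and at 171, 154, 147 and 183 CPM in PDT, a log2 fold change of 0.28 ± 0.13 (adjusted p = 0.304). PBS 4 lay inside the PDT range, and the value was 0.05 after the GC and length correction. Psmd14 (ENSMUSG00000026914), the deubiquitinase itself, was lowest, at 202, 179, 192 and 181 CPM in PBS and at 172, 195, 133 and 149 CPM in PDT. PDT 2 lay among the PBS libraries and PDT 3 and PDT 4 well below them, with a log2 fold change of −0.22 ± 0.13 (adjusted p = 0.465). The structural genes Psmd3, Psmd8, Psmd11, Psmd12 and Psmd13 had log2 fold changes of 0.19, 0.10, 0.12, 0.03 and 0.14, and Psmd6 one of −0.20. After the GC and length correction Psmd3, Psmd8, Psmd12 and Psmd13 turned to −0.09, −0.14, −0.13 and −0.11, Psmd11 was at 0.03 and Psmd6 at −0.39.

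The 3 chaperones of base assembly stood at opposite ends. Psmd10 (ENSMUSG00000031429), also known as gankyrin, was at 38.96, 39.2, 33.2 and 42.2 CPM in PBS and at 60.9, 47.6, 48.0 and 49.3 CPM in PDT. No PDT library fell within the PBS range, and PDT 1 was highest, with a log2 fold change of 0.42 ± 0.13 (adjusted p = 0.149) and one of 0.34 ± 0.12 (adjusted p = 0.197) after the GC and length correction. Psmd5 (ENSMUSG00000026869) was at 106, 94.5, 86.9 and 89.7 CPM in PBS and at 81.2, 76.0, 68.1 and 57.1 CPM in PDT. All PDT libraries lay below all PBS libraries, with a log2 fold change of −0.42 ± 0.14 (adjusted p = 0.163), or −0.34 ± 0.13 (adjusted p = 0.238) after the correction. Psmd9 was at 36.1 and 38.1 CPM in PDT 3 and PDT 2, inside the PBS range of 35.1 to 40.4 CPM, and at 50.6 and 58.0 CPM in PDT 4 and PDT 1, with a log2 fold change of 0.30 ± 0.16 (adjusted p = 0.394), or 0.11 after the correction.

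Among the activators, the interferon-inducible pair was higher in PDT on average, Psme1 only before the GC and length correction, and Psme3 and Psme4 had negative log2 fold changes with overlapping groups. Psme2 (ENSMUSG00000079197), the beta subunit of the PA28 ring, was at 97.1, 119.6, 93.6 and 107 CPM in PBS and at 151, 126, 122 and 176 CPM in PDT. PBS and PDT did not overlap, though PBS 2 was close to PDT 3. The log2 fold change was 0.46 ± 0.15 (adjusted p = 0.149), or 0.16 after the GC and length correction. Reads of Psme2 and of its near copy Psme2b, which held 164 to 426 reads, may have been split between them. Psme1 (ENSMUSG00000022216), the alpha subunit of the same ring, was at 133, 172, 149 and 172 CPM in PBS and at 192, 163, 178 and 197 CPM in PDT. PDT 2 lay inside the PBS range, and the log2 fold change of 0.22 ± 0.13 (adjusted p = 0.422) was −0.10 after the correction. Psme3 (ENSMUSG00000078652), the nuclear PA28 gamma, was at 118, 134.5, 133 and 120.5 CPM in PBS and at 112.5, 132, 124 and 117 CPM in PDT, with a log2 fold change of −0.06 ± 0.11 (adjusted p = 0.845), or −0.20 after the correction. Psme4 (ENSMUSG00000040850), which encodes the large single-chain activator PA200, was at 142, 138, 135 and 120.2 CPM in PBS and at 109, 136, 127 and 97.6 CPM in PDT. PDT 2 and PDT 3 lay among the PBS libraries, and the log2 fold change was −0.18 ± 0.13 (adjusted p = 0.541), or −0.02 after the correction.

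The constitutive active-site genes were then set against the genes that replace them under interferon-gamma. Psmb8 was at 28.2, 44.1, 13.9 and 22.1 CPM in PBS and at 52.2, 32.1, 33.9 and 65.3 CPM in PDT, a log2 fold change of 0.76 ± 0.32 (adjusted p = 0.268 by edgeR). Psmb9 was at 10.2, 28.1, 11.7 and 13.7 CPM in PBS and at 29.0, 19.3, 21.6 and 37.6 CPM in PDT, 0.75 ± 0.32 on the log2 fold change scale (adjusted p = 0.266). Psmb10 was at 59.5, 90.6, 43.6 and 57.2 CPM in PBS and at 77.1, 68.6, 77.1 and 96.1 CPM in PDT, or 0.34 ± 0.20 (adjusted p = 0.441). After the GC and length correction Psmb8 and Psmb9 were both at 0.44 and Psmb10 was at 0.01. In each of the 3, PBS 2 was the highest PBS library and lay above at least 1 PDT library. Without PBS 2, Psmb9 was at 1.18 and Psmb10 at 0.58, and without PBS 3 Psmb10 was at 0.21. Ratios of read counts within a library do not depend on scaling, and 4 were compared by a two-sided exact permutation test, whose smallest p over 70 assignments is 0.0286. The log2 ratio of Psmb8 to Psmb5 averaged −2.01 ± 0.60 in PBS against −1.17 ± 0.27 in PDT (SD over 4 libraries, exact permutation p = 0.0857, adjusted over the 4 ratios 0.171). The log2 ratio of Psmb9 to Psmb6 was −3.33 ± 0.63 and −3.01 ± 0.20 (exact permutation p = 0.371, adjusted 0.495), and its difference of 0.32 was 0.16 without PBS 1 and 0.63 without PBS 2. The log2 ratio of Psmb10 to Psmb7 was −0.13 ± 0.39 and −0.05 ± 0.15 (exact permutation p = 0.743, adjusted 0.743). The log2 ratio of Psme2 to Psme3 was −0.28, −0.17, −0.51 and −0.17 in PBS and 0.43, −0.06, −0.02 and 0.59 in PDT. The groups did not overlap, with a difference of 0.52 (exact permutation p = 0.0286, adjusted 0.114). A single ratio at the smallest p adjusts to 0.114 over 4 ratios. It could not fall under 0.05 alone, so the adjusted value decides nothing here. None of the ratios was corrected for length and GC content. Psme2 (962 nt) and Psme3 (2664 nt) differ in length, and their log2 fold changes after that correction were 0.16 and −0.20. Macrophage markers, which mark cells that express these inducible genes, were higher in PDT on average for 8 of 8 genes, with none at 0. Their summed level was 1930.1 to 3760.1 CPM in PBS and 4644 to 6267 CPM in PDT. The groups overlapped for Adgre1, C1qb, Mrc1 and Cd14, and Cd68 had an adjusted p of 0.0497 by edgeR. Within the groups the sum was highest in PBS 1 and PDT 1, while Psmb8, Psmb9 and Psmb10 were highest in PBS 2 and PDT 4. T and NK cell markers summed to 10.4 to 15.6 CPM in PBS and 24.8 to 28.7 CPM in PDT, where PDT 4 was highest. Of them 8 of 8 were higher on average, and Cd3e, Cd8a, Nkg7 and Gzma were at 0 reads in at least 1 library. The part of these cells in the ratios was not tested.

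**Figure D3:**
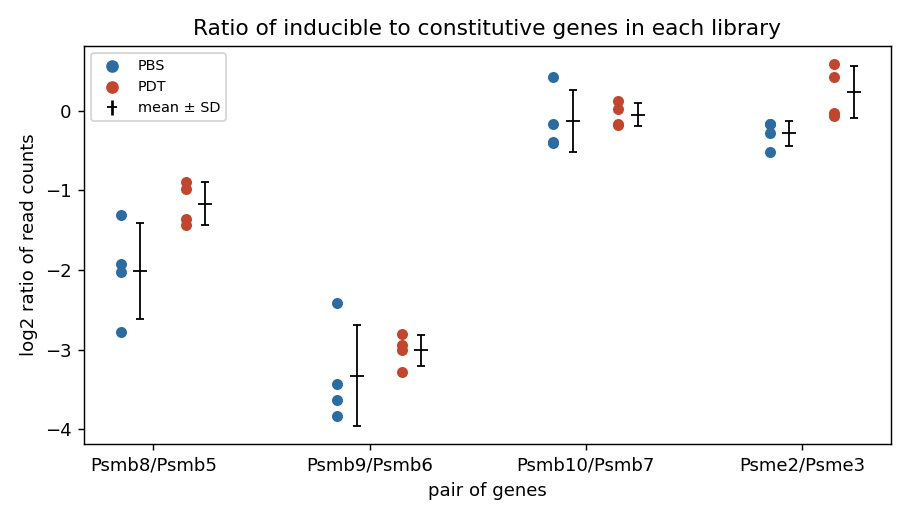
Log2 ratio of read counts of 4 gene pairs in each library, PBS in blue and PDT in red, with the mean ± SD beside each group. For Psme2 over Psme3 the PDT libraries lie at −0.06 to 0.59, above the PBS libraries at −0.51 to −0.17, and in the other pairs the groups overlap.

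The members varied little between libraries and only in part together. The median SD of log2 CPM over the 8 libraries was 0.20 for the members, 0.23 for other genes of at least 30 CPM and 0.37 for all tested genes. Within the groups it was 0.13 in PBS and 0.18 in PDT. Over the 741 pairs of members the median Pearson correlation across the 8 libraries was 0.33, with 517 positive. It was 0.54 in the alpha ring, 0.51 in the beta subunits without an active site, 0.40 in the lid, 0.32 among ATPases and 0.25 among the active-site genes. It was −0.39 in the other base subunits, −0.40 among activators and −0.42 among the chaperones. These correlations are a description: the points share 8 libraries, their scaling and their base composition. The median deviation of the members from their mean over libraries on the log2 scale was −0.06, −0.10, −0.08 and 0.03 for the PBS libraries in order, and 0.21, 0.09, −0.08 and 0.08 for the PDT libraries. PDT 1 was highest, and PDT 3 lay inside the PBS range. The alpha ring had its lowest value in PDT 3, at −0.22, and the active-site genes their highest in PDT 4, at 0.35, so the PDT libraries differed among themselves in which class was high.

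**Figure D4:**
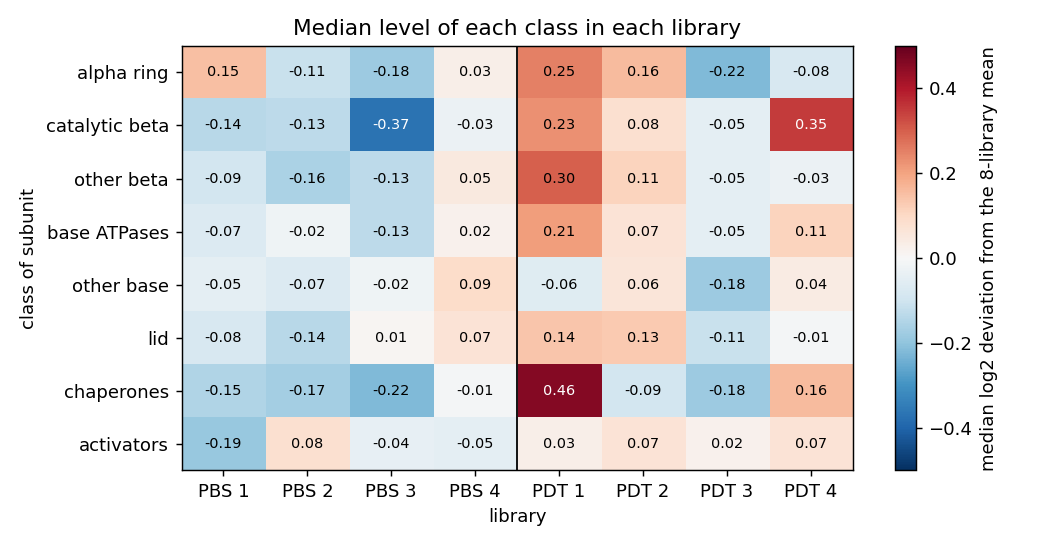
Median log2 deviation from the 8-library mean for each class of subunit (vertical axis) in each library (horizontal axis), with red above and blue below the mean. The chaperones in PDT 1 (0.46) and the active-site genes in PDT 4 (0.35) are highest, and the active-site genes in PBS 3 (−0.37) are lowest.

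The direction of a member went with the length and GC content of its transcript. Proteasome transcripts were short, with a median of 1591 nt for the longest protein-coding transcript against 2874 nt for all tested genes. Among the 38 members other than Psma8, Spearman's rho of the log2 fold change was −0.49 with length and 0.48 with GC content, and over 16274 tested genes it was −0.24 and 0.27. These are correlations across genes, which are not independent replicates. The 27 members under 2000 nt had a median of 0.14 on the log2 fold change scale, with 22 higher in PDT, and the 5062 tested genes of that length had the same median, 0.14. The 11 longer members had a median of −0.06 with 5 higher, and the 11212 longer genes one of −0.05. After the GC and length correction the medians were −0.11 and −0.05 for the short and the long members and −0.10 and −0.08 for the short and the long genes. Psme2, Psmb6 and Psmb3 (766 to 962 nt) were among the short members that lay nearer 0 after it. Psma4 (1165 nt) at 0.40, Psmd10 (1430 nt) at 0.34, Psmd1 (3112 nt) at −0.43 and Psmd5 (4397 nt) at −0.34 moved less, and Psmb5 and Psmd6 reached −0.38 and −0.39. The cause of this relation was not tested.

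**Figure D5:**
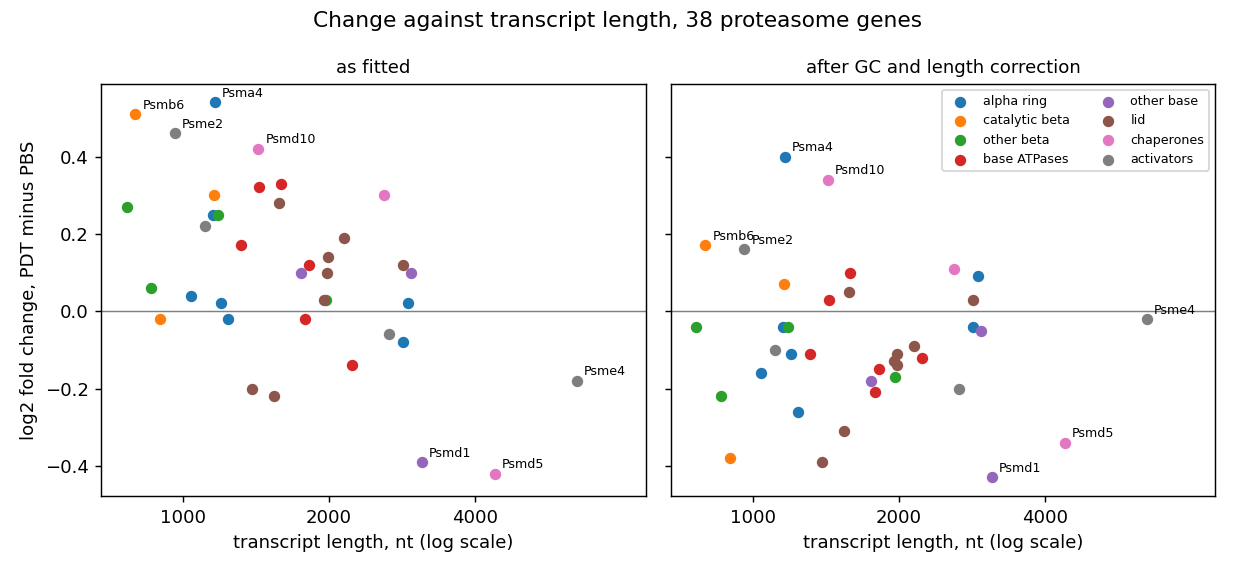
Log2 fold change (PDT minus PBS) of 38 members against transcript length in nt on a log scale, as fitted on the left and after the GC and length correction on the right, coloured by class. The downward trend on the left (rho −0.49) is flatter on the right (rho −0.12), where Psma4 (0.40) and Psmd10 (0.34) are highest and Psmd1 (−0.43) is lowest.

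Levels can be compared between genes only per length. In CPM per kilobase, averaged over the 8 libraries, the medians of the core classes stood above those of the regulatory particle. The median was 171 in the alpha ring and 219 in the beta subunits without an active site, against 96.2 for the ATPases, 80.8 for the lid and 18.8 for the chaperones. Within the active-site set, Psmb6 was at 225, Psmb5 at 111.5 and Psmb7 at 64.1 per kilobase, although these proteins stand in equal number in the core. Psmb4 was highest at 279 and Psmd9 lowest at 15.9 among members other than Psma8. These levels rest on the longest protein-coding transcript, which for Psma2 (2911 nt) is long for its family.

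Of the other genes of the pathway listed here, 0 had an adjusted p under 0.05 in edgeR, as among the members. Unlike the members as fitted, no list here had more genes higher than lower. Of 8 genes for other subunits of the regulatory particle and for proteins bound to the proteasome, as fitted, 2 were higher and 6 lower. Among them Usp14 (ENSMUSG00000047879), a deubiquitinase bound to the base, was at 129.7, 109.8, 119 and 129 CPM in PBS and at 91.3, 107, 91.6 and 73.9 CPM in PDT. All PDT libraries lay below all PBS libraries, with a log2 fold change of −0.42 ± 0.13 (adjusted p = 0.152), or −0.25 (adjusted p = 0.3) after the GC and length correction. Sem1, a small subunit that the symbol rule misses, was at 126 to 211 CPM in PBS and 169 to 280 CPM in PDT, with overlapping groups. Its log2 fold change was 0.45 ± 0.20 (unadjusted p = 0.0469 and adjusted p = 0.294 by edgeR). Ube3c, of the same list, was at 75.9 to 87.9 CPM in PBS and 64.2 to 74.3 CPM in PDT, with no overlap. Its log2 fold change was −0.26 ± 0.11 (unadjusted p = 0.0398 and adjusted p = 0.271 by edgeR). Of 6 tested assembly factors, 3 were higher and 3 lower, and Pomp (ENSMUSG00000029649), the maturation factor of the core, had the smallest p, with a log2 fold change of 0.25 ± 0.13 (adjusted p = 0.362). Nfe2l1 (ENSMUSG00000038615) and Nfe2l2 (ENSMUSG00000015839), the factors that bind antioxidant response elements, had log2 fold changes of 0.03 ± 0.14 (adjusted p = 0.942) and −0.04 ± 0.13 (adjusted p = 0.919), or −0.05 and −0.14 after the GC and length correction. Their list of 9 had 3 higher and 6 lower and 0 with an unadjusted p under 0.05, and Bach1 (ENSMUSG00000025612), a repressor of the same elements, had the smallest p at 0.14 ± 0.17 (adjusted p = 0.758), or 0.24 after the GC and length correction. Of 12 ubiquitin genes and shuttles, 6 were higher and 6 lower, and Ubqln2 (ENSMUSG00000050148), which carries ubiquitinated proteins to the proteasome, was at 73.7 to 80.2 CPM in PBS and 53.5 to 69.3 CPM in PDT, which did not overlap, and had a log2 fold change of −0.35 ± 0.12 (adjusted p = 0.174). Transcript levels do not measure assembled proteasomes or their activity.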

How the data were processed

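Per the labels' protocols, Trizol RNA of 8 tumour samples was freed of ribosomal RNA before a directional library preparation. The authors deposited raw read counts per gene, with 57132 Ensembl identifiers and symbols per the file headers. The submitters' processing notes name GRCm39, STAR 2.7.11b and cutadapt 4.6. Which tool counted the reads, with which strand setting and annotation, is not given in the sources used here. Values of genes with overlapping, antisense or near-identical partners are therefore uncertain. The 484 rows with no symbol were kept under their identifiers. Between 77.9% and 83.8% of counts from 1 to 20 were even.

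Counts as deposited were fitted with edgeR 4.0.16 in R 4.3.3 (quasi-likelihood test, PDT minus PBS, no covariate, trimmed-mean scaling, filterByExpr), with Benjamini-Hochberg adjustment over 16588 genes and a threshold of 0.05. SE is the log2 fold change divided by the root of F, and log2 CPM has a prior count of 2. No library copied another: chi-square per degree of freedom was 62.1 to 191 over the 28 pairs of libraries. Exact permutation tests used scipy 1.17.1. Lengths and GC came by identifier from GENCODE M21 (GRCm38), which matched 98.1% of tested genes, and the correction used splines with 4 degrees of freedom per library. DESeq2 1.42.0, limma 3.58.1 (voom), other scalings, filters and counts divided by 2 were alternatives. The fit was tested on simulated data. Members, lists and tests were chosen with earlier results of these data known. Genes described singly were mostly chosen as the active-site and Psme genes, Psmb8 to Psmb10, Nfe2l1, Nfe2l2, the largest rise, largest fall and smallest p of each class, the steadiest and the most variable member, and the smallest p of each other list. Others given with values, among them Psma7, Psmb1, Psmb4, Psmd9, Sem1 and Ube3c, were picked outside this rule.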

Additional observations from a re-analysis of the deposited data

Results flagged for a closer look

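In 126 groups of 4 libraries (each gene or ratio in each treatment group), 2 held a library far from the other 3, where chance flags about 1 in 20. Psmd10 was at 60.9 CPM in PDT 1, and the other PDT libraries were at 47.6 to 49.3 CPM. Tapbp, the chaperone that loads MHC class I, was at 124.5 CPM in PBS 2, and the other PBS libraries were at 80.4 to 83.6 CPM.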

How the results depend on the processing

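The number of members past the threshold was 0 in edgeR under every scaling and filter tried, under the replicate block, after the GC and length correction, without mitochondrial and haemoglobin genes and in limma-voom. It was 2 in DESeq2 and 0 to 1 when each library was left out in turn (Psma4 without PBS 4). The members' median log2 fold change was −0.10 after the GC and length correction and 0.01 to 0.17 with 1 library left out. Over all genes, where 39 passed, the count was 69 with upper-quartile scaling, 534 with no filter, 88 with a minimum of 1 CPM in 4 samples, 67 with counts divided by 2, 869 in DESeq2, 167 in limma-voom, 16 after the GC and length correction and 0 to 122 with 1 library left out (0 without PBS 3 or PDT 1, 122 without PBS 4). The cause was not tested. Replicate numbers are shared by the groups, but same-numbered libraries correlated at only 0.0385 to 0.069 in their deviations and 0 of 4 PBS libraries correlated best with their own number, so the numbers were not taken as pairs. With the replicate block 182 genes passed over all genes, 0 members did, and Psma8 was at −0.13. Of 575 values of 32 named genes, 17 changed sign, all from log2 changes of at most 0.31. After the GC and length correction these were Psme1 at −0.10, Nfe2l1 at −0.05, Psmb3 at −0.04, Psmd4 at −0.18 and Psmd2 at −0.05. In limma-voom Psma8 was at −0.47. With 1 library left out Psmb5 ran from −0.11 to 0.06, Nfe2l1 from −0.08 to 0.11, Nfe2l2 from −0.10 to 0.06, Psma3 from −0.17 to 0.01, Psma8 from −0.60 to 0.62 and the log2 ratio of Psmb10 to Psmb7 from −0.01 to 0.27. The smallest exact p with 1 library left out is 0.0571, so no ratio could pass there. Depth limits Psma8, with 10 to 92 reads per library, while every other member had at least 1264.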

Other observations

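Genes of proliferation and of interferon-gamma signalling were measured beside the proteasome genes, since both are known to go with proteasome expression. Of 8 proliferation genes 6 were higher and 2 lower in PDT, where the median was 0.05 on the log2 scale and 0 had an unadjusted p under 0.05 in edgeR. Top2a, the topoisomerase of dividing cells, had the smallest p, with PBS at 142 ± 6.37 CPM, PDT at 129 ± 24.5 CPM (SD, n = 4) and an adjusted p of 0.696 by edgeR (log2 fold change −0.14, or −0.0027 after the GC and length correction). Of 8 genes of the interferon-gamma response and class I loading, 6 were higher, with a median of 0.15 and 1 with an unadjusted p under 0.05. That gene was Tapbp, with PBS at 93.0 ± 21.1 CPM, PDT at 121 ± 14.0 CPM and a log2 fold change of 0.38 ± 0.16 (edgeR adjusted p = 0.262), or 0.18 after the GC and length correction. Erythroid markers were lower in 4 of 4 genes, and their summed level was 769 to 4123 CPM in PBS and 559 to 1294 CPM in PDT. Neutrophil markers summed to 48.7 to 158 CPM in PBS and 115 to 392 CPM in PDT, and skeletal muscle markers to 48.3 to 1272 CPM and 138 to 3144.5 CPM, with 5 of 5 tested genes higher in each list and 0 past an adjusted p of 0.05. The pseudogene Psma5-ps held 6 to 54 reads.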
